A study of Canis lupus familiaris with 6 samples.

Results

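The 10 genes described here act in the intracellular defence against RNA viruses. IFIH1, DHX58, MAVS and TLR3 sense viral RNA or pass the signal on, and EIF2AK2, OAS1, MX1, IFI44L, IFI44 and RSAD2 act against the virus or are induced alongside such effectors. They were chosen by name, and all 10 of 10 were found among the 34981 gene names measured. They were followed by single-cell RNA sequencing in dog neural retina lying over a transplant of human retinal organoid fragments. WA09, the established human embryonic stem cell line behind the organoids, carried a CRX-tdTomato reporter that marks photoreceptor precursors. Each of 3 experiments (LG5, RC726 and RC724) gave 2 libraries: a 5 mm punch of neuroretina above the graft, and a control punch of the same size from a part of the retina without graft.

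The dogs, labelled normal or wild-type, had healthy retinas and received immunosuppression, and the grafts had been in the subretinal space for 3 days. Both punches of an experiment shared the immunosuppression and the grafted retina, so the control is neither an unoperated nor an untreated retina. The labels give neither the age nor the number of the animals, and the drugs used are not named in the sources used here. The 3 experiments were treated as independent pairs, without knowledge of whether they came from different animals. The sources used here do not say whether reads from human cells were set apart, and their part in the values was not tested.

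RNA from a virus, or double-stranded RNA of other origin, is bound in the cytosol by the helicase IFIH1 (also called MDA5) and its relative DHX58 (LGP2), and in endosomes by the receptor TLR3. IFIH1 signals through MAVS, an adaptor on the mitochondrial outer membrane, towards interferon regulatory factors and the making of type I and type III interferons. Interferons bind receptors on the same or other cells, and factors that include STAT2 and IRF9 then switch on interferon-stimulated genes, which include most of the effectors and the sensors IFIH1, DHX58 and TLR3 themselves. In the retina, Müller glia and microglia are known to mount such responses.

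After filtering, the libraries over a graft held 8701 to 22427 barcodes and the controls 8039 to 16830, with 31079427 to 57083517 UMIs (unique molecular identifiers, which count captured transcripts) per library. Any 2 libraries shared between 17 and 102 barcode sequences, at most 0.677% of the smaller library. Clusters were named from marker genes and are called rod-like, cone-like and so on, since no sort or label gives the cell type. All 11 rod markers were detected in the rod-like cells of every library, all 9 Müller glia markers in Müller glia-like cells and all 9 cone markers in cone-like cells. LG5 stood apart from the other experiments: its rod-like cells formed 2 clusters of their own (0 and 1) and had a median of 757 to 775 UMIs, against 1557 to 1776 in RC726 and RC724. Its 2 libraries were counted with Cell Ranger 6.0.2, those of RC726 with 7.1.0 (over the graft) and 7.0.0 (control), and both of RC724 with 7.1.0, so the members' levels are mostly given by experiment.

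In rod-like cells, 8 of the 9 members that passed the filter on low counts were higher over the graft and 0 were lower, where 10.7% of all genes tested were called higher. The median log2 change of the 9 was 5.18, beside 0.00047 for all genes tested in these cells. All 3 sensors and all 5 tested effectors rose, the adaptor MAVS did not pass the test, and RSAD2 had too few counts for one. Most of the 9 were so low in control that they passed the filter through the punches over the graft, so these counts and the median describe them and support nothing further. Statements below on groups that do not overlap are descriptions too, since the share of all genes without overlap was not counted. Levels below are CPM (a gene's UMIs relative to all UMIs, scaled to the same total in every sum) of the summed cells of a class in a library. Tests are edgeR's quasi-likelihood test with the experiment as a block (n = 3 pairs of punches), and errors are SE. Each SE was derived from the log2 change and the F statistic of that test, which draws on the spread of other genes. It is not the spread of the ratios of the 3 pairs. The p-values are adjusted by Benjamini-Hochberg over all genes of the class, and the threshold is 0.05.

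IFIH1, the cytosolic sensor of long double-stranded RNA, stood over the graft at 94.3 CPM in LG5, 19.0 in RC726 and 30.3 in RC724. In control rod-like cells it stood at 1.05, 1.16 and 0.199 CPM. Every punch over a graft lay above every control punch, and the log2 change was 5.37 ± 0.35 (edgeR adjusted p = 6.73e-06).

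DHX58, the relative of IFIH1 that has no signalling domain of its own and tunes its activity, was measured at 121, 11.4 and 13.7 CPM over the graft in the same order of experiments. The control punches held 1.89, 0.952 and 0.896 CPM. The groups did not overlap, LG5 was highest by far, and the change was 4.58 ± 0.32 (edgeR adjusted p = 8.88e-06). TLR3, the endosomal receptor, stood at 44.6, 5.87 and 6.98 CPM against 0.629, 1.16 and 2.19 in control, a change of 2.95 ± 0.49 (edgeR adjusted p = 0.00154). Its groups did not overlap either, and without LG5 its change was 1.99.

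MAVS, through which IFIH1 signals, gave another pattern. It was listed at 0 UMIs in LG5 rod-like cells over the graft and at 6.16 and 7.26 CPM in RC726 and RC724, against 0.629, 5.10 and 5.47 CPM in control. The groups overlapped, and the change of 0.26 ± 0.30 did not pass the test (edgeR adjusted p = 0.591). In both LG5 punches MAVS stood at 1.26 CPM or less in every tested class, apart from the horizontal-like cells of its control (6.64 CPM). In the summed punch it stood at 0.510 and 0.772 CPM in LG5 against 3.87 to 5.13 CPM in the 4 other libraries. LG5 was also the experiment counted with the older software version, whose part in this was not tested.

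**Figure D1:**
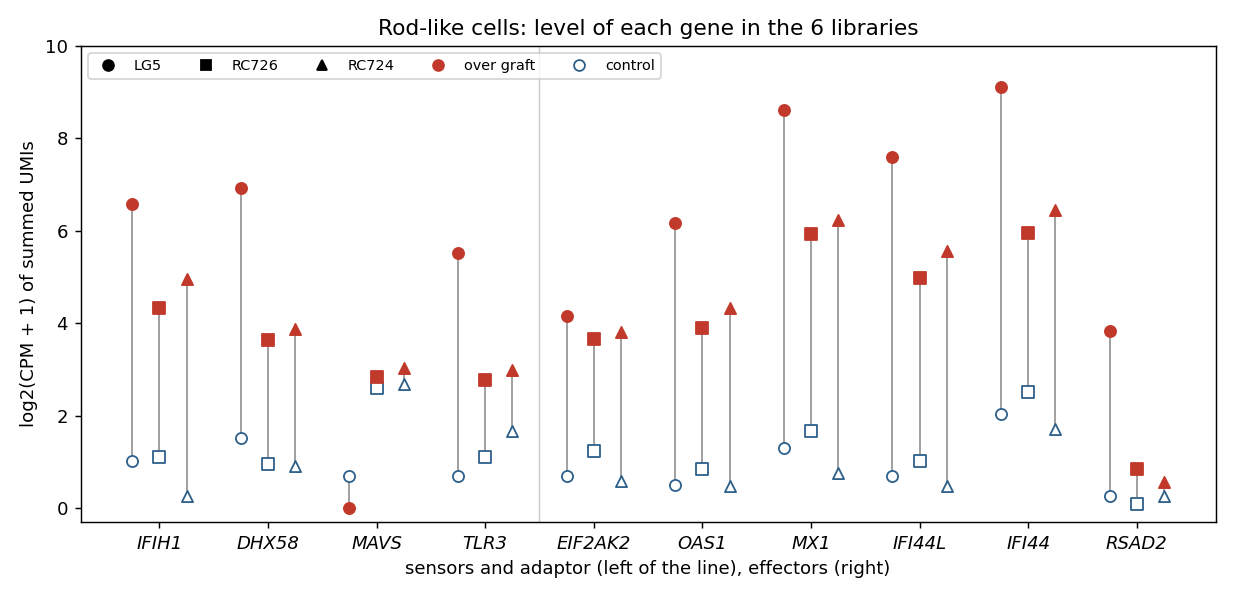
Level of each of the 10 genes in rod-like cells, as log2(CPM + 1) of the summed UMIs (vertical axis), in the 3 punches over a graft (filled) and the 3 control punches (open), with a line joining the punches of 1 experiment. All filled points of the 8 called genes lie above all open ones, MAVS shows no such gap, and RSAD2 stands out in LG5 only, at 13.4 CPM. The share of all genes with such a gap was not counted, so the gaps are a description.

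Among the effectors, EIF2AK2 (PKR), the kinase that binds double-stranded RNA and halts translation, differed little between the experiments over the graft. It stood at 16.9, 11.7 and 13.1 CPM there and at 0.629, 1.36 and 0.498 CPM in control. The groups were apart, with a change of 3.82 ± 0.32 (edgeR adjusted p = 2.26e-05). OAS1, which on binding double-stranded RNA makes short oligoadenylates that act as second messengers, stood at 71.6, 14.02 and 19.1 CPM against 0.419, 0.816 and 0.398. It rose by 5.28 ± 0.35 (edgeR adjusted p = 6.73e-06), again with no overlap.

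MX1, a dynamin-like GTPase that traps viral ribonucleoproteins, reached 392.03 CPM in LG5, 59.8 in RC726 and 74.1 in RC724. Control rod-like cells held 1.47, 2.18 and 0.697 CPM. The change was 6.15 ± 0.36 (edgeR adjusted p = 4.80e-06), and all 3 experiments showed it, with log2 ratios on CPM + 1 of 7.32, 4.26 and 5.47.

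IFI44L and IFI44 are interferon-induced paralogs that lie next to each other in the dog RefSeq assembly UU_Cfam_GSD_1.0. IFI44L stood at 193, 30.7 and 46.4 CPM against 0.629, 1.02 and 0.398, and it had the largest fitted change of the members, 6.28 ± 0.33 (edgeR adjusted p = 4.68e-06). IFI44 stood at 549, 60.8 and 87.0 CPM against 3.14, 4.69 and 2.29, a change of 5.18 ± 0.44 (edgeR adjusted p = 2.68e-05). Neither gene overlapped between groups, and both were highest in LG5. The sources used here do not say how reads shared by near-identical copies were counted.

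RSAD2 (viperin), a radical SAM enzyme that makes a chain-terminating nucleotide, failed the low-count filter in rod-like cells, with 88 UMIs over the graft in all and 4 in control. It stood at 13.4 CPM in LG5 over the graft, but at 0.798 and 0.489 CPM in RC726 and RC724, against 0.210, 0.068 and 0.199 CPM in control. In LG5 the level lay far above its control, and in the other experiments both punches were near the level that a few counts give.

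The size of the rise differed between experiments. The summed level of the 10 genes in rod-like cells was 1496 CPM in LG5 over the graft against 10.7 in control, 220.3 against 18.5 in RC726, and 298 over the graft and 13.2 CPM in the control of RC724. The 8 calls held without LG5, without RC726 and without RC724, and also when free RNA was subtracted or when barcodes were assigned one by one. They were lost without the experiment as a block, where the test called 0 genes at all and 672 had an unadjusted p under 0.05.

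Other measures moved with the graft in these cells. The 11 rod markers made up 1.68%, 1.71% and 1.10% of the UMIs of rod-like cells over the graft and 3.32%, 2.25% and 2.13% in control, so they were lower over the graft in every experiment. Their part in the rise of the members was not tested. The 10 microglia markers made up 0.00241%, 0.000199% and 0.000307% over the graft and 0.000859%, 0.000129% and 0.000269% in control, so they were higher over the graft in every experiment. Their part in the rise of the members was not tested. CX3CR1 and P2RY12 were at 0 in rod-like cells of all 6 libraries, and 7 to 8 of the 10 were detected in each library. RNA free in the suspension was estimated from Müller glia and bipolar markers at 13.04%, 14.4% and 16.9% of rod-like UMIs over the graft and at 8.997%, 12.2% and 12.5% in control. With that share of the punch's own profile, free RNA would give MX1 at 14.9 CPM in LG5 over the graft, where 392.03 was measured. The 8 called members lay 11.6 to 26.2 times above that level in LG5, 5.37 to 10.9 times in RC726 and 5.85 to 12.6 times in RC724. That level takes free RNA to have the composition of the whole punch, which includes the rod-like cells. The part of free RNA in the rise of the members was not tested.

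Single barcodes showed how widely the transcripts were spread. With each rod-like barcode thinned to 1000 UMIs, MX1 had a UMI in 26.2% of barcodes over the LG5 graft (exact binomial 95% interval 24.0 to 28.5%), 3.95% over the RC726 graft (3.48 to 4.47%) and 4.75% over the RC724 graft (4.17 to 5.38%). In control the shares were 0.138%, 0.244% and 0.0954%. Bipolar-like cells, set beside them as another class, gave 9.02% in LG5, 0.970% in RC726 and 0% in RC724 over the graft. The last was 0 of 608 barcodes (exact binomial upper bound 0.605%). MX1 was itself called higher in bipolar-like cells, and free RNA was estimated at 89.1% of their UMIs in LG5 over the graft. They are thus not a class free of MX1. The rod-like share lay above the bipolar-like one in each experiment. Intervals and bounds cover counting error only.

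Thinning left out 3337 of 4856 rod-like barcodes of the LG5 punch over the graft, whose median was 775 UMIs, and 911 of 7037 and 996 of 5943 in RC726 and RC724. Of the bipolar-like barcodes over the graft it left out 4164 of 5750, 17 of 739 and 9 of 617. With thinning to 500 UMIs, MX1 had a UMI in 172 of 5750 bipolar-like and 760 of 4856 rod-like barcodes over the LG5 graft. The counts were 2 of 739 and 150 of 7037 in RC726, and 0 of 617 and 163 of 5943 in RC724. Without thinning the MX1 shares over the grafts were 24.6%, 6.37% and 7.27%, and in bipolar-like cells, at medians of 769, 5963 and 7969 UMIs, 5.83%, 2.84% and 1.62%. A UMI of any of the 10 genes was found in 64.4%, 11.6% and 17.4% of thinned rod-like barcodes over the graft and in 0.828%, 1.65% and 1.48% in control. Thinned to 500 UMIs, which kept every barcode, these shares were 44.3%, 7.43% and 9.99% against 0.486%, 0.888% and 0.692%. So LG5 was highest at both depths, and in every experiment the share over the graft lay above that of its control.

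**Figure D2:**
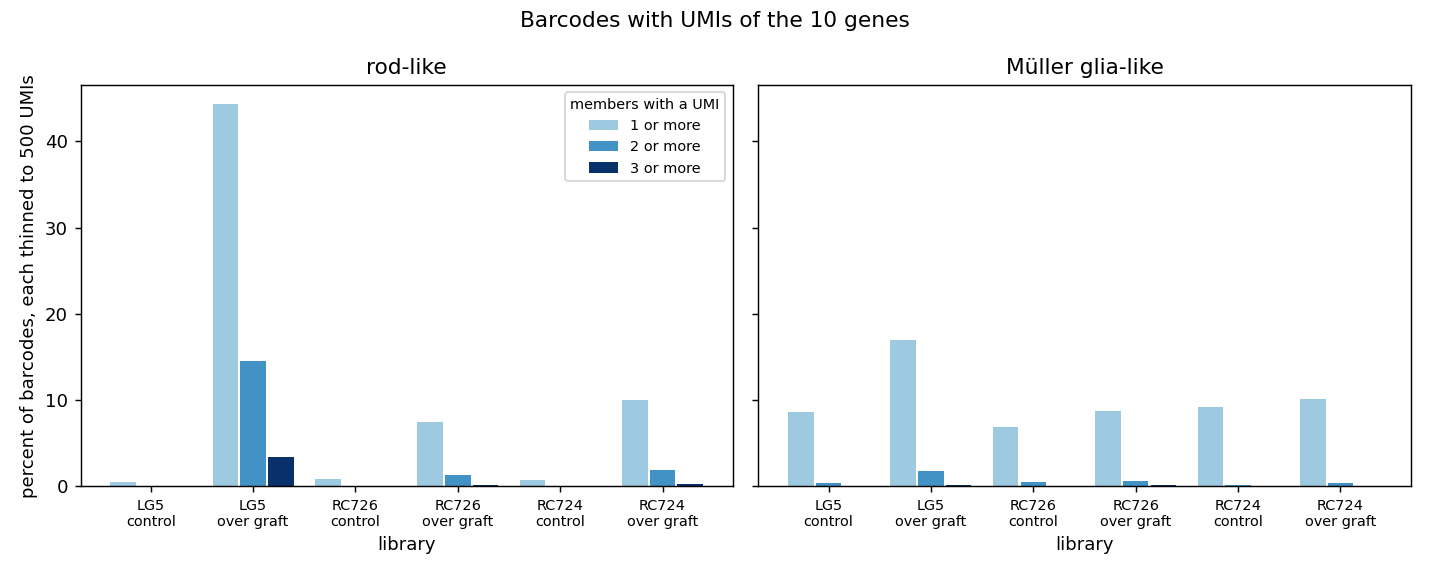
Percent of rod-like (left) and Müller glia-like (right) barcodes, each thinned to 500 UMIs, with UMIs of 1 or more, 2 or more, and 3 or more of the 10 genes, in each library. Rod-like bars are below 1% in all controls and reach 44.3% in LG5, while the Müller glia-like bars for 1 or more genes stand between 6.85% and 17.0% in all 6 libraries.

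The transcripts fell together in the same barcodes. Of the rod-like barcodes with an MX1 UMI over the graft (thinned to 1000 UMIs), 73.1% in LG5, 47.1% in RC726 and 49.4% in RC724 also held another of the 10 genes. Among barcodes without an MX1 UMI, 51.7%, 7.97% and 13.3% held one. Clusters of rod-like cells differed too. In RC726 over the graft the summed level was 508 CPM in cluster 19, 191 and 195 CPM in clusters 20 and 21, 150 CPM in cluster 25 and 100.04 CPM in cluster 18. In RC724 over the graft cluster 19 was again highest at 358 CPM and cluster 18 lowest at 206 CPM. The control cells of cluster 19 held 80.4 CPM in RC726 and 11.9 CPM in RC724. These are values of single libraries, described without a test.

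Müller glia-like cells held these transcripts in control punches already. The 10 genes together stood at 205, 209 and 229 CPM in control Müller glia-like cells (LG5, RC726, RC724), and at 419, 267 and 236 CPM over the graft. All 10 members passed the low-count filter there, and 0 were called higher or lower, where 0.0121% of all genes tested (2 of 16579) were called higher. Of the 10, IFI44L and RSAD2 had an unadjusted p under 0.05 in edgeR, and DESeq2 called 0. The median log2 change of the 10 was 0.37, beside -0.0064 for all genes.

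IFI44 was measured in Müller glia-like cells at 125, 86.9 and 119 CPM in control and at 197, 122 and 111 CPM over the graft. The groups overlapped, and RC724 was slightly lower over the graft (0.30 ± 0.18, edgeR adjusted p = 0.534). IFIH1 stood at 18.7, 16.01 and 24.7 CPM in control and at 23.8, 22.0 and 27.6 CPM over the graft, a change of 0.27 ± 0.13 (edgeR adjusted p = 0.459). EIF2AK2 stood at 11.4, 19.9 and 17.7 CPM in control and at 12.6, 19.5 and 15.9 CPM over the graft, a change of -0.07 ± 0.14. The kinase thus had in control Müller glia-like cells a level that rod-like cells reached only over the graft.

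The largest fitted changes in Müller glia-like cells were those of MX1 and RSAD2, and neither passed the test. MX1 stood at 8.08, 26.2 and 19.0 CPM in control and 62.1, 35.5 and 22.7 CPM over the graft, so most of the difference came from LG5 (1.07 ± 0.51, edgeR adjusted p = 0.439). RSAD2 stood at 8.33, 23.5 and 6.20 CPM in control and 33.6, 21.6 and 16.5 CPM over the graft, higher in LG5 and RC724 and slightly lower in RC726 (1.04 ± 0.38, edgeR adjusted p = 0.329). IFI44L, at 9.85, 10.6 and 16.1 CPM against 35.2, 18.4 and 18.2 CPM, was the only member here whose groups did not overlap (0.87 ± 0.31, edgeR adjusted p = 0.320).

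Of the other members, DHX58 stood at 4.97, 3.93 and 5.97 CPM in control and 21.6, 6.06 and 5.28 CPM over the graft, a rise in LG5 that RC724 did not share. TLR3 changed by 0.43 ± 0.27, OAS1 by 0.19 ± 0.21 and MAVS by -0.56 ± 0.28, all short of the threshold. In LG5 the log2 ratio on CPM + 1 was 2.80 for MX1, 1.92 for DHX58 and 1.89 for RSAD2 in Müller glia-like cells, whereas in RC726 and RC724 the ratios of the 10 genes lay between -0.61 and 1.28. Free RNA was estimated at 39.4% and 40.0% of Müller glia-like UMIs in LG5 (over the graft, control) and at 9.22 to 18.2% in the other libraries, and its part in these levels was not tested. The power of the test limits what can be said here: on simulated Müller glia-like counts 61.5% of genes changed by 1 log2 unit were recovered. The simulation changed 200 genes alike in all 3 experiments. It thus does not give the power for changes that differ between experiments, as that of MX1 did. Adjusted p-values also depend on how many genes change, and only 3 of 16579 genes were called in the real Müller glia-like counts. So 61.5% is not the power of the test that called 0 members.

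**Figure D3:**
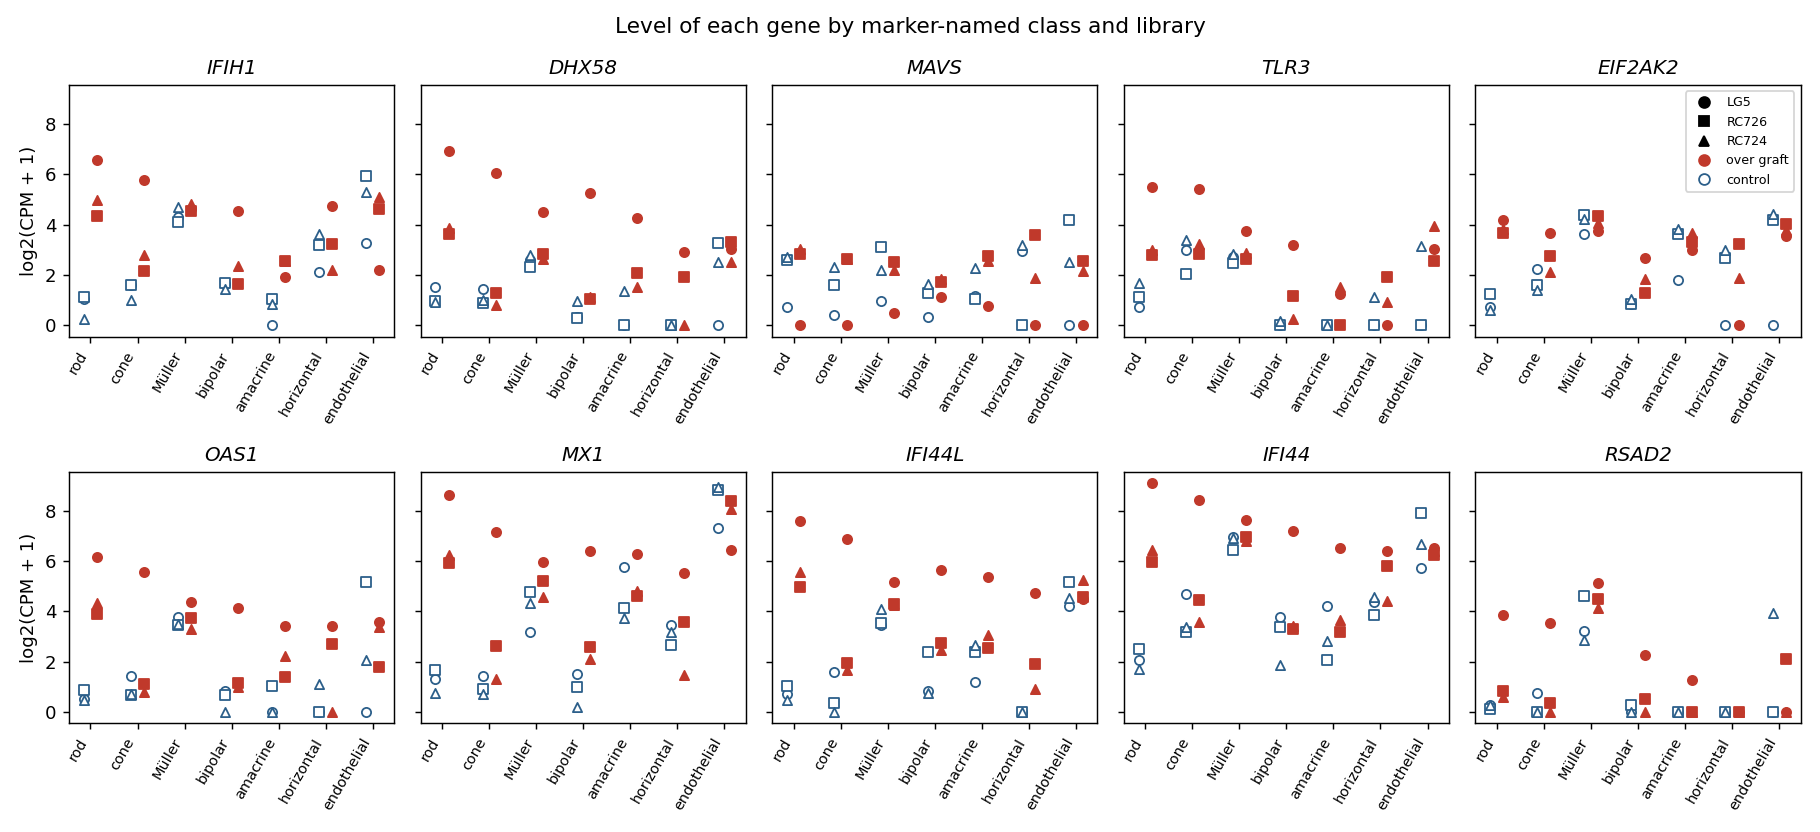
Level of each gene, as log2(CPM + 1) of summed UMIs, in 7 marker-named classes (horizontal axis) of the 3 control punches (open) and the 3 punches over a graft (filled). Rod-like cells show the widest gaps between open and filled points, for MX1 and DHX58 the Müller glia-like points of the groups lie apart in LG5 and near each other in the other experiments, and MX1 is high in endothelial-like cells of both groups.

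The order of the classes in control punches differed from gene to gene. Of the 7 classes compared (the 6 tested ones and endothelial-like cells), endothelial-like cells had the highest mean for 6 genes (IFIH1, MAVS, OAS1, MX1, IFI44L and IFI44), Müller glia-like cells for 3 (DHX58, EIF2AK2 and RSAD2) and cone-like cells for TLR3. Only for MX1 and IFI44L did the range of the highest class not overlap that of the next. MX1 stood at 157, 450 and 496 CPM in control endothelial-like cells, the next class being amacrine-like cells at 27.3 ± 22.3 CPM (SD, n = 3). These endothelial values rest on 9 to 25 cells per control library. Müller glia-like cells came next after endothelial-like cells for IFIH1, OAS1, IFI44L and IFI44, each with a range above that of the following class. Over the graft rod-like cells had the highest mean for 6 genes (IFIH1, DHX58, TLR3, OAS1, IFI44L and IFI44), although the range of each overlapped that of the next class. RSAD2 stayed highest in Müller glia-like cells there, with a range above that of rod-like cells. In control rod-like cells stood at a mean of 0.801 CPM for IFIH1, 0.682 for IFI44L and 1.45 for MX1.

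Endothelial-like cells were too few for a test (9 in the RC726 control). MX1 was lower there over the graft than in control in all 3 experiments, at 86.7, 333 and 267 CPM against 157, 450 and 496. The summed level of the 10 genes was 238, 493 and 466 CPM over the graft and 235, 865 and 712 CPM in control. Microglia-like or macrophage-like cells, with 12 cells in the RC724 control, were not tested either. Their summed level was 208, 125 and 112 CPM over the graft and 152, 163 and 87.7 CPM in control, higher over the graft in LG5 and RC724 and lower in RC726. In LG5 these cells lay in different clusters in the 2 punches, with 268 over the graft and 13 in control in cluster 42, 198 and 6 in cluster 45, and 31 and 132 in cluster 49. T or NK-like cells, of which LG5 held 199 over the graft and 4 in control, had 273 CPM over that graft.

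In cone-like cells 5 members passed the filter and 2 were called higher, where 2.18% of all genes tested were. The median log2 change of the 5 was 1.43, beside 0.015 for all genes. IFIH1 stood at 54.0, 3.46 and 5.85 CPM over the graft and 2.01, 2.0 and 0.975 CPM in control, with no overlap and a change of 3.22 ± 0.55 (edgeR adjusted p = 0.00726). IFI44 stood at 347, 20.7 and 10.97 CPM against 24.5, 8.0 and 9.42 CPM, with groups that overlapped because the LG5 control was above the graft punches of RC726 and RC724 (2.30 ± 0.49, edgeR adjusted p = 0.0242).

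TLR3, EIF2AK2 and MAVS were tested in cone-like cells and not called (1.24 ± 0.41, 1.43 ± 0.37 and 0.73 ± 0.49). The other 5 failed the filter, although LG5 held many of their UMIs. MX1, for example, stood at 141 CPM in LG5 over the graft and at 5.18 and 1.46 CPM in RC726 and RC724, against 1.68, 0.857 and 0.650 CPM in control. Without LG5, 0 members were called in cone-like cells, where IFIH1 changed by 1.53 and IFI44 by 0.84. In that fit 89 of 12035 genes tested were called higher. IFI44 was also not called with DESeq2 (1.75), with 12% of barcodes removed as doublets (2.35) or with free RNA subtracted (3.18). IFIH1 failed the low-count filter with 12% of barcodes removed or free RNA subtracted and was not tested. Free RNA was estimated at 39.6% of cone-like UMIs in LG5 over the graft and 27.3% in its control, against 5.32 to 6.41% in the other libraries. That share would give MX1 at 45.4 CPM in LG5 over the graft, and the part of free RNA in these levels was not tested.

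Bipolar-like cells had 5 members tested and 1 called higher, MX1, where 0.166% of all genes tested were. MX1 stood at 84.4, 4.97 and 3.34 CPM over the graft and at 1.83, 0.9976 and 0.133 CPM in control, with no overlap (4.55 ± 0.45, edgeR adjusted p = 0.00374). Without LG5 MX1 was not called (adjusted p = 0.133, edgeR), whereas 4 members were called without RC726. In these fits 6 of 13961 and 169 of 14237 genes tested were called higher. With free RNA subtracted or with barcodes assigned one by one, MX1 failed the low-count filter in bipolar-like cells and was not tested. In RC724 most bipolar-like cells lay in different clusters in the 2 punches: the graft punch gave 414 cells of cluster 32 and 19 of cluster 33, the control punch 0 and 721. Free RNA was estimated at 89.1% of bipolar-like UMIs in LG5 over the graft and 44.7% in its control. That share would give MX1 at 102 CPM in this library, which is above the 84.4 CPM measured. The part of free RNA in the MX1 change was not tested. IFIH1, MAVS, IFI44L and IFI44 were tested there and not called, with changes between 0.62 and 2.75, and the other 5 failed the filter.

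In amacrine-like cells 3 members were tested and 1, IFI44, was called higher, where 0.465% of all genes tested were. IFI44 stood at 92.0, 8.05 and 11.7 CPM over the graft and 17.6, 3.12 and 6.15 CPM in control, higher in each experiment although the groups overlapped (1.83 ± 0.35, edgeR adjusted p = 0.0129). The call was lost without LG5 and without RC724, and 2 members were called without RC726. In the last fit 107 of 12198 genes tested were called higher. MX1 was already present in control amacrine-like cells, at 52.8, 16.7 and 12.3 CPM, and stood at 76.8, 23.4 and 27.1 CPM over the graft (0.69 ± 0.24, edgeR adjusted p = 0.335). EIF2AK2 changed by 0.02 ± 0.42, and the other 7 members failed the filter. In horizontal-like cells, where 0.0167% of all genes tested were called higher, none of the 10 members passed the filter, although 1 was called without RC724 (10 of 5878 genes tested were called higher in that fit). RSAD2 had 0 UMIs there in any library, and IFI44 stood at 83.8, 55.4 and 20.5 CPM over the graft and 19.9, 13.5 and 22.9 CPM in control.

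**Figure D4:**
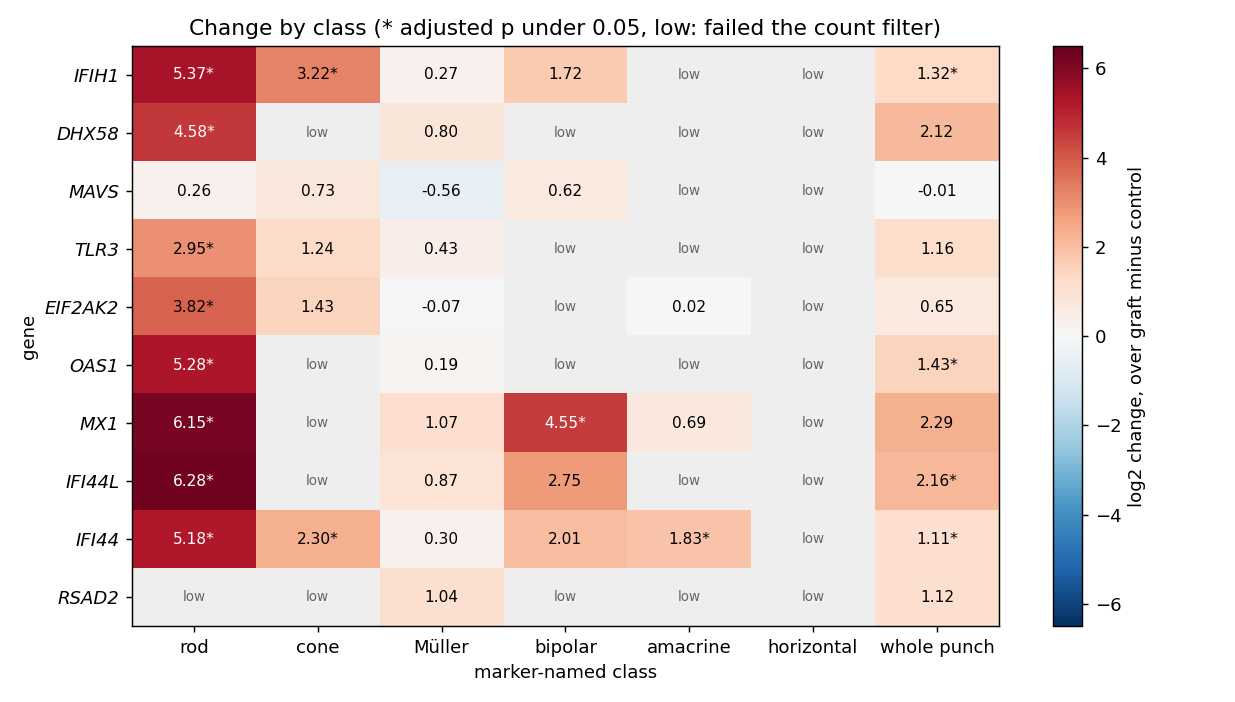
Fitted log2 change (over graft minus control) of each gene (rows) in each tested class and in the whole punch (columns), where an asterisk marks an adjusted p under 0.05 and grey a gene that failed the low-count filter. The rod-like column holds 8 asterisks and the Müller glia-like column 0.

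The change itself was compared between classes within the same punches. Compared with Müller glia-like cells, 9 of 10 members had a larger change in rod-like cells, where 4.25% of all genes tested had a change larger in rod-like cells. The median difference of the 10 was 4.36 log2 units. For IFI44L the change in rod-like cells was larger by 5.39 ± 0.33 (edgeR interaction, adjusted p = 3.33e-06), for MX1 by 5.09 ± 0.28 (2.39e-06), for IFIH1 by 5.07 ± 0.37 (1.02e-05) and for EIF2AK2 by 3.88 ± 0.31 (1.57e-05). These differences had the same sign in all 3 experiments. MAVS was not called (0.67 ± 0.36). RSAD2 was called at 2.72 ± 0.64 (edgeR interaction, adjusted p = 0.0226), but it failed the filter in rod-like cells alone and its differences on CPM + 1 were 1.68, 0.87 and -0.97, so the experiments did not share a sign.

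Against cone-like cells 6 of 9 members tested had a larger change in rod-like cells (3.71% of all genes), against bipolar-like cells 5 of 9 (4.89%), against amacrine-like cells 4 of 9 (3.65%) and against horizontal-like cells 4 of 9 (1.81%). Not 1 of the members called had a larger change in the other class. Several members, such as MX1 and OAS1 in cone-like cells and every one in horizontal-like cells, had failed the filter in the other class alone. Such members entered these fits through the rod-like cells, where most of them are high over the graft, so the counts are a description and support nothing. IFI44 was called in all 5 comparisons, by 3.41 ± 0.24 against cone-like, 3.71 ± 0.23 against bipolar-like, 4.16 ± 0.49 against amacrine-like and 4.07 ± 0.46 against horizontal-like cells. MX1 and EIF2AK2 were also called in all 5. MAVS was called in none of them. For cone-like and amacrine-like cells edgeR shrank the spread of every gene to the common trend (infinite prior degrees of freedom). The p-values there rest on the spread of other genes more than on that of the member. This held for the other comparisons too. Their prior was worth 10.1 (Müller glia-like), 13.6 (bipolar-like) and 154 (horizontal-like) degrees of freedom, beside 2 residual ones. With free RNA subtracted 0 members were called against bipolar-like cells, but that fit gave no SE for MX1 and EIF2AK2 and says nothing about them.

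Summed over the whole punch, 4 of 10 members were called higher, IFIH1, OAS1, IFI44L and IFI44, where 1.9% of all genes tested were. Their changes were 1.32 ± 0.17, 1.43 ± 0.22, 2.16 ± 0.36 and 1.11 ± 0.22 (edgeR adjusted p = 0.0224, 0.0301, 0.0359 and 0.0496). MX1 stood at 115, 46.1 and 37.5 CPM over the graft and 7.92, 11.8 and 16.7 CPM in control and missed the threshold although the groups did not overlap (2.29 ± 0.46, edgeR adjusted p = 0.0517). Without RC726 8 members were called, without RC724 7, and DESeq2 called 9 with all 3 experiments. In these fits 450 of 21667, 575 of 20814 and 1074 of 31595 genes tested were called higher, against 407 of 21421 in the main fit. A sum over the punch mixes the number of cells of each class with the RNA of each cell, and these cannot be told apart in it.

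The split of these transcripts among the classes shifted. Rod-like cells held 1.36%, 8.39% and 2.07% of the punch's UMIs of the 10 genes in control (LG5, RC726, RC724) and 33.0%, 37.2% and 34.0% over the graft. Müller glia-like cells held 65.2%, 67.3% and 75.1% in control and 28.7%, 45.4% and 48.3% over the graft. Rod-like cells meanwhile made up 28.1%, 72.7% and 64.7% of barcodes in control and 21.7%, 66.3% and 68.3% over the graft, so the share rose in RC724 and fell in the other 2 experiments. In LG5 over the graft cone-like cells held a further 10.3% and bipolar-like cells 8.49%. Clusters without a name held 22.1%, 13.5% and 11.2% in control.

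**Figure D5:**
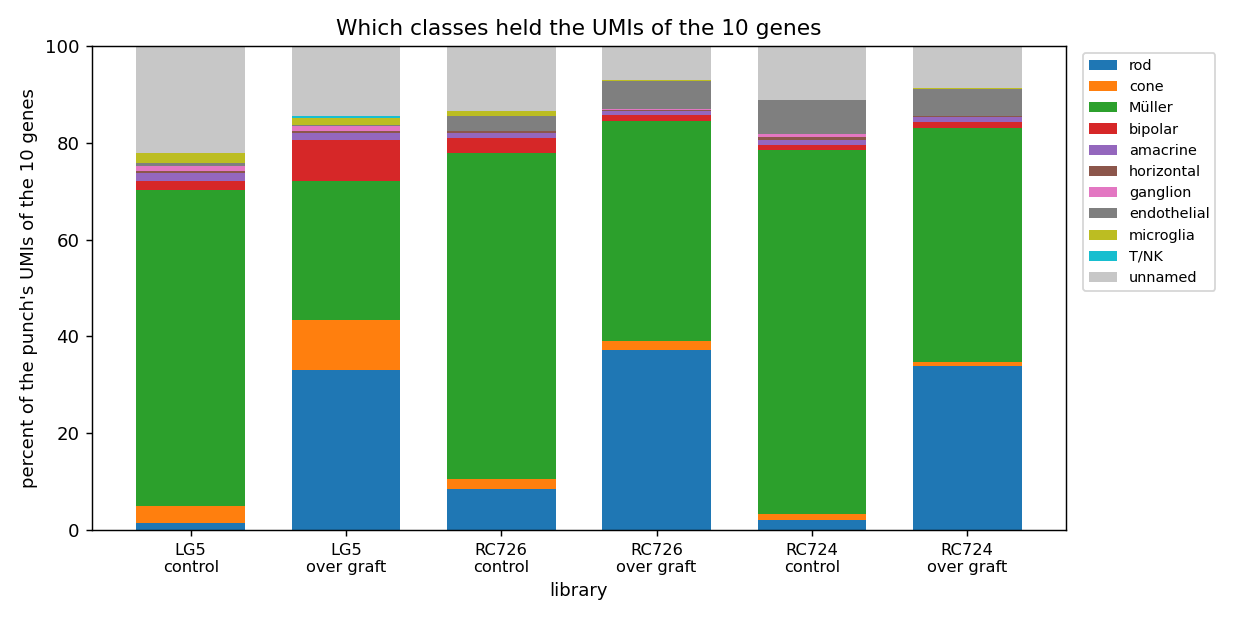
Percent of each library's UMIs of the 10 genes that fell in each marker-named class (stacked, summing to 100). The rod-like share is at most 8.39% in the controls and 33.0 to 37.2% over the grafts, and the Müller glia-like share is the largest in every control.

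Most interferon genes gave few or no UMIs. Of 13 interferon genes listed, 7 could be analysed here. IFNB1, IFNA7 and IFNL3 had 0 UMIs in all 6 libraries, IFNG and IFNL1 had 1 UMI each over the grafts and 0 in control, and IFNK had 24 and 26. IFNE was the only one tested in rod-like cells, where it stood at a mean of 7.62 CPM over the graft and 10.8 in control and was not called (-0.49 ± 0.20, edgeR adjusted p = 0.103). A count of 0 says only that none was captured at this depth.

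Of 11 genes of the interferon receptors and their signalling, 5 rose and 1 fell in rod-like cells, where 10.7% of all genes tested were called higher and 1531 of 15237 lower. IRF9, which joins STAT2 in the factor that drives interferon-stimulated genes, stood at 297, 34.5 and 87.0 CPM over the graft and 13.2, 8.29 and 6.07 CPM in control (3.39 ± 0.33). STAT2 rose by 0.90 ± 0.14 and the type I receptor chain IFNAR1 by 1.13 ± 0.13. IFNLR1, the specific chain of the type III interferon receptor, fell by 0.91 on the log2 scale, from 19.5, 15.3 and 20.3 CPM in control to 6.38, 9.92 and 12.1 CPM over the graft, with no overlap (edgeR adjusted p = 0.00824).

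Among the other nucleic acid sensors, adaptors and kinases 9 rose and 1 fell of 17 tested in rod-like cells, beside the same 10.7% higher and 1531 of 15237 lower of all genes, with a median change of 0.53. IRF7, the factor that amplifies interferon genes, stood at 314, 26.7 and 50.4 CPM over the graft and at 0.629, 1.70 and 0.398 CPM in control, a change of 6.01 ± 0.48 (edgeR adjusted p = 2.01e-05). DDX58 (RIG-I), the sensor of short RNA with a 5' triphosphate that also signals through MAVS, rose by 4.41 ± 0.42, and TRIM25, a ubiquitin ligase linked to it, by 3.92 ± 0.34. ZNFX1 rose by 1.04 ± 0.13. NLRX1, a mitochondrial protein described as a brake on MAVS, was the one that fell. IRF3, which acts just downstream of MAVS, was tested and not called (-0.11 ± 0.17). IRF3, like the list genes that fell, was singled out after its values were seen.

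Other antiviral effectors rose in 23 of 29 tested cases in rod-like cells and fell in 1 (all genes: 10.7% higher, 1531 of 15237 lower), with a median change of 2.51. A further 13 genes of this list failed the low-count filter. Listed genes as low in control as IRF7 passed it through the punches over the graft. The counts and medians of these lists are thus a description and support nothing further. IFI35 rose by 4.97 ± 0.34, PML by 2.50 ± 0.18, and ZC3HAV1, which targets CpG-rich viral RNA, by 3.33 ± 0.28. MX2, the neighbour of MX1 in the RefSeq assembly, rose by 5.46 ± 0.56, and OAS3, the neighbour of OAS1, by 5.11 ± 0.51. Both neighbours were chosen as neighbours after their values were seen. IFI6 fell by 1.60 on the log2 scale, with groups that overlapped. In Müller glia-like cells 0 of 11, 0 of 21 and 0 of 32 tested genes of these 3 lists were called, where 3 of 16579 genes tested were. With so few calls, counts of 0 say little about these lists. In cone-like cells 2 of 10, 2 of 17 and 7 of 19 were called, all higher, where 2.18% of all genes tested were. Without LG5, 1 gene of these lists was called there, where 109 of 12035 genes tested were.

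The pattern of each gene over classes and libraries was compared with that of the others over 36 sums (6 classes in 6 libraries), as a description, since sums of 1 library share its depth and free RNA. Pearson's r of log2(CPM + 1) with the mean of the other 9 members was 0.960 for OAS1, 0.904 for IFI44, 0.885 for IFI44L, 0.885 for DHX58 and 0.858 for IFIH1. It was 0.792 for MX1, 0.764 for RSAD2, 0.708 for TLR3 and 0.683 for EIF2AK2. MAVS stood apart at -0.18. Outside the members, the 5 genes of 12501 most like their mean were PSMB8, an immunoproteasome subunit (0.958), the transcription factor IRF1 (0.947), UBE2L6, the conjugating enzyme for ISG15 (0.919), TAP1, a peptide transporter of antigen presentation (0.913), and DDX58 (0.901).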

How the data were processed

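The authors deposited, for each of 6 single-cell libraries, a table of UMI counts (genes by barcodes) that Cell Ranger 6.0.2, 7.0.0 or 7.1.0 had written, per the file headers. The sources used here do not give the genome build, the annotation, the counting of introns or the treatment of human reads. The values are raw counts with no normalization.

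Barcodes with under 300 genes or over 20% mitochondrial UMIs were left out, as were the 6% with the highest Scrublet doublet score in each library, since Scrublet's own threshold marked almost none. Cells were clustered (scanpy 1.11.5, Leiden, resolution 1.5) without 33 genes that differed between punches and named from marker lists. The naming limits (score 1.5, margin 0.6), the rule that assigns barcodes one by one and the markers behind the free RNA estimate of cone-like cells were set after cluster tables had been seen. The members and gene lists were chosen with earlier results of these data known. UMI sums per library and class were tested with edgeR 4.0.16 (R 4.3.3): quasi-likelihood test, TMM, filterByExpr by group, experiment as block, Benjamini-Hochberg adjustment over all genes tested. Differences between classes were tested in 1 fit of both classes with a term per library and a class-by-experiment term. DESeq2 1.42.0 was an alternative.

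The pairing comes from the labels, where both punches of an experiment come from the same grafted retina. The deviations of the 2 punches of an experiment from their group means correlated between 0.581 and 0.951 in every class. LG5 stood apart from the other experiments, and mismatched punches were not compared. These correlations thus cannot show that the pairing is right. The p-values rest only in part on the spread between these 3 pairs. For each gene edgeR joins its own spread, with 2 residual degrees of freedom, to a prior taken from other genes. That prior was worth 9.34 degrees of freedom in rod-like cells, 4.85 in the whole punch (the lowest) and 17.4 in amacrine-like cells (the highest). Other genes thus weighed more than the gene itself in every class. On simulated counts with 200 genes changed alike in every experiment, the test of rod-like cells recovered 75.5% of changes of 1 log2 unit, 93.5% of 2 and 94.5% of 4 (15237 genes, 8 to 13 false calls). That of Müller glia-like cells recovered 61.5%, 95% and 91% (16579 genes, 17 to 38 false calls), and the difference between rod-like and Müller glia-like cells 93% of 2 units and 99.5% of 4 (16 to 33 false calls), so some calls exceeded the nominal error. The adjusted threshold depends on how many genes change. These shares thus do not give the power where few genes were called, as in Müller glia-like cells.

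All 10 members are named. Of each other list, up to 4 called genes with the smallest p are named in rod-like cells, besides genes without any UMI. Some of these genes are not reported here. Gene names were matched to RefSeq (33363 of 34981). No sequence is shown.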

Additional observations from a re-analysis of the deposited data

Results flagged for a closer look

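The results flagged here are members whose change over the graft differed between rod-like cells and another class, by the interaction test of edgeR with Benjamini-Hochberg adjustment. Each value is the log2 change in rod-like cells minus that in the other class (n = 3 experiments), and all are positive. Against Müller glia-like cells the difference was 5.39 for IFI44L, 5.09 for MX1, 5.07 for IFIH1, 5.06 for OAS1, 4.84 for IFI44, 3.88 for EIF2AK2, 3.62 for DHX58, 2.72 for RSAD2 and 2.51 for TLR3. Each of these but RSAD2 had the same sign in all 3 experiments. RSAD2 had 4 UMIs in all control rod-like cells, and its difference on CPM + 1 was negative in RC724.

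Against cone-like cells the difference was 3.41 for IFI44, 3.39 for OAS1, 2.90 for IFIH1, 2.45 for EIF2AK2, 2.31 for MX1 and 2.06 for TLR3. Against bipolar-like cells it was 4.25 for IFIH1, 4.06 for IFI44L, 3.71 for IFI44, 2.64 for EIF2AK2 and 2.46 for MX1. Against amacrine-like cells it was 5.72 for MX1, 5.06 for IFI44L, 4.16 for IFI44 and 3.91 for EIF2AK2, and against horizontal-like cells 6.16 for MX1, 5.77 for IFIH1, 4.37 for EIF2AK2 and 4.07 for IFI44. All of these had the same sign in each experiment. Several of these members failed the low-count filter in the other class alone and entered through rod-like cells. In horizontal-like cells the members had 12 to 61 UMIs in all per library, so these differences rest on few counts of that class.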

How the results depend on the processing

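The 8 calls in rod-like cells held under every alternative run but one, the fit without the replicate block, and no call reversed under any alternative. Without the experiment as a block 0 members and 0 genes were called in every class and in the whole punch, and the members that differed between classes fell to 0 against cone-like and 1 against bipolar-like cells. Single members in rod-like cells kept their side of the threshold in 91 of 99 refits, and the other 8 were those without the block. In Müller glia-like cells no member was called in any of 110 refits. There 0 genes of any kind were called without the block, without RC726 or with free RNA subtracted, and at most 474 (without LG5). Some of these refits could thus not have called a member. Leaving out 1 experiment at a time gave 995 to 3037 called genes in rod-like cells (main 3165), 107 to 632 in cone-like (383), 0 to 474 in Müller glia-like (3), 14 to 257 in bipolar-like (31), 11 to 150 in amacrine-like (86), 3 to 82 in horizontal-like (1) and 408 to 830 in the whole punch (683). The same gave 0 to 3 members higher in cone-like (2), 0 to 4 in bipolar-like (1), 0 to 2 in amacrine-like (1), 0 to 1 in horizontal-like (0) and 3 to 8 in whole-punch sums (4), and 2 to 4 members differing from horizontal-like cells (4, 2 without RC724). Without LG5 0 members were called in cone-like, bipolar-like and amacrine-like cells, and the IFI44 call in amacrine-like cells was also lost without RC724. Such fits have fewer pairs, so a lost call does not by itself show which experiment carried it. The other pathway genes called higher ranged over 29 to 35 in rod-like (37), 1 to 16 in cone-like (11), 0 to 9 in bipolar-like (1), 0 to 7 in amacrine-like (1), 0 to 2 in horizontal-like (0) and 0 to 1 in Müller glia-like cells (0), and those called lower over 1 to 4 in rod-like (3) and 0 to 1 in cone-like, Müller glia-like and horizontal-like cells (0).

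DESeq2 called 320 genes in Müller glia-like, 58 in bipolar-like, 18 in amacrine-like and 6 in horizontal-like cells and 2000 in the whole punch, with 9 members there, 0 in amacrine-like cells and 3 that differed from bipolar-like cells. It called 6 other pathway genes higher in cone-like cells, 2 in bipolar-like cells and 31 higher and 2 lower in the whole punch, and 1 lower in Müller glia-like cells. Without the low-count filter 990 genes were called in cone-like, 462 in Müller glia-like, 710 in bipolar-like, 216 in amacrine-like and 101 in horizontal-like cells and 1790 in the whole punch. The members called higher were then 9, 0, 7, 2, 0 and 8, the other pathway genes 24, 2, 16, 7, 2 and 34, and 2, 1 and 1 were called lower in cone-like, Müller glia-like and horizontal-like cells. With free RNA subtracted 129 genes were called in cone-like, 0 in Müller glia-like, bipolar-like and amacrine-like and 4 in horizontal-like cells. The members called were 0 in cone-like, bipolar-like and amacrine-like cells and 0 differed from bipolar-like cells. There the called members IFIH1 (cone-like), MX1 (bipolar-like) and IFI44 (amacrine-like) failed the low-count filter and were not tested, as did the first 2 with barcodes assigned one by one and the first and last with more doublets removed. Of the other pathway genes 1 was then higher in cone-like, 0 in bipolar-like and amacrine-like cells and 1 lower in rod-like cells.

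Assigning barcodes one by one gave 164 genes in Müller glia-like, 15 in bipolar-like, 35 in amacrine-like and 35 in horizontal-like cells, 1 member in cone-like and 0 in bipolar-like cells, and 7 other pathway genes higher in cone-like and 1 lower in Müller glia-like and horizontal-like cells. Removing 12% of barcodes as doublets gave 24 genes in Müller glia-like and 3 in horizontal-like cells and 1070 in the whole punch, 0 members in cone-like and amacrine-like cells, and 2 other pathway genes higher in amacrine-like and 1 lower in Müller glia-like cells. The stricter barcode filter gave 39 genes in Müller glia-like and 9 in horizontal-like cells and 1 other pathway gene lower in Müller glia-like cells, and RLE size factors gave 2 genes in horizontal-like cells. Where an alternative removed samples, barcodes or genes, those are fewer or other values in the fit, and otherwise the cause was not tested. Subtracting free RNA and assigning barcodes one by one were not run for the whole punch. Rod-like cells of LG5 had a median of 757 to 775 UMIs, which limits what a single barcode can show there.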
